A study of Homo sapiens and Mus musculus with 29 samples.

Results

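FOXA1 overexpression (FOXA1-OE) was examined within HNF4G-KO primary tumors, as a comparison of 5 pancreas tumors labeled HNF4G knockout + FOXA1, from 4 mice, with 4 pancreas tumors labeled HNF4G knockout + EV, from 4 mice. These 9 tumors were chosen by their labels alone, out of 29 samples of the series. Tumors 2 and 3 with FOXA1-OE grew in the same mouse and were averaged, and metastases were left out. All tumors were xenografts of HPAF-II, an established line of human pancreatic ductal adenocarcinoma (PDAC) of classical subtype, in the pancreas of NSG mice, a strain without functional lymphocytes. Both groups carried the CRISPR targeting of HNF4G and a vector, which was empty (EV) in the HNF4G-KO group and held FOXA1 in the other. The knockout cells were a pool of 3 single-cell clones, so that all 9 tumors descend from at most these 3 clones. The other 6 primary tumors of the line, 3 control tumors that received Cas9 with an empty vector and 3 tumors with Cas9 and FOXA1, entered the same model. mRNA was measured by RNA-seq.

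FOXA1 is a forkhead pioneer transcription factor, which can bind its site in closed chromatin and open it for other factors. HNF4G and its paralog HNF4A are nuclear receptors of endodermal epithelia, and in PDAC these factors share many enhancers with FOXA1. The classical subtype keeps an endodermal, gland-like program with genes such as CLDN18 and the trefoil factors, whereas the basal-like subtype expresses squamous genes such as keratins. The comparison asks which genes differ when FOXA1 is added to tumors in which HNF4G has been targeted.

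Values are RPKM, read counts scaled by gene length and by the reads counted in the library, and were analyzed as log2(RPKM + 1), on which changes at low levels come out too small. Depth was worked out from the steps between RPKM values. It was 52.9 to 64.1 M reads without FOXA1-OE (median 60.04 M) and 35.3 to 63.6 M reads with it (median 54.5 M). In HNF4G-KO + FOXA1-OE tumors 4 and 5, mitochondrial tRNA genes took 30.2% and 18.7% of all RPKM, against 3.05% to 5.76% in tumors 1 to 3 and 2.89% to 4.74% in the HNF4G-KO tumors. Tumor 2 stood apart in another way, with all mitochondrial genes together at 52.8% of RPKM as in tumor 4 (52.8%), against 24.2% to 32.7% in the HNF4G-KO tumors and 19.2%, 33.4% and 40.4% in tumors 1, 3 and 5. Such a share lowers the RPKM of all other genes in a library, and its part in the differences was not tested apart from the shift to the same median given below. The HNF4G-KO tumors resembled each other closely (r = 0.977 to 0.989 between pairs, across genes), and tumors of different HNF4G-KO + FOXA1-OE mice less so (r = 0.853 to 0.955). All 10 markers of the HPAF-II epithelium passed the filter of 1 RPKM. They summed to 4978 to 6317 RPKM in HNF4G-KO tumors and to 5172 to 7937 RPKM with FOXA1-OE. A tumor also holds mouse cells, whose reads can align to human genes, and fewer cells of a type cannot be told apart from less RNA per cell.

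FOXA1 mRNA was at 1.26, 1.34, 1.36 and 1.87 RPKM in the 4 HNF4G-KO tumors. It was at 11.99, 5.75, 23.1, 6.50 and 4.65 RPKM in HNF4G-KO + FOXA1-OE tumors 1 to 5. All 5 tumors exceeded all HNF4G-KO tumors, and the highest value and 1 of the lower ones came from the same mouse. The log2 fold change was 1.90 (95% confidence interval 1.01 to 2.80), with a limma adjusted p-value of 0.123. The two-sided exact permutation test over mice gave p = 0.0286, which is as small as it can be with 4 mice in each group. The RPKM values do not separate the added FOXA1 from the gene's own mRNA. In the other arm, the tumor labeled FOXA1-OE 3 had 0.763 RPKM, within the control range of 0.519 to 0.932 RPKM, whereas FOXA1-OE tumors 1 and 2 had 6.32 and 8.18 RPKM. That library goes against its label and shares in the estimate of the spread. Mitochondrial tRNA genes took 24.6% of its RPKM, against 4.54% and 5.53% in FOXA1-OE tumors 2 and 1, and the part of this in the calls was not tested. Without it 28 genes were called, 25 of them lower, and FOXA1 was among the 3 called higher.

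HNF4G mRNA, the target of the knockout, was at 7.10, 8.42, 5.72 and 7.11 RPKM in HNF4G-KO tumors and at 7.09, 6.16, 6.67, 3.94 and 1.69 RPKM with FOXA1-OE. Both groups thus kept the transcript, at or above the 2.48 to 3.47 RPKM of control tumors in 8 of 9 tumors. Since frameshifted mRNA may persist, the level says nothing of the loss of protein, and the direction of each comparison follows the label. The difference of -0.60 between the groups was within their spread (limma adjusted p = 0.306). The paralog HNF4A was at 18.7 ± 3.59 and 18.2 ± 1.49 RPKM (SD, n = 4 mice in each group), a log2 difference of -0.02 (95% confidence interval -0.41 to 0.36). GATA6, a zinc finger factor of the classical subtype, differed by -0.18 (adjusted p = 0.386). The other FOXA genes, FOXA2 and FOXA3, differed by -0.28 and -0.18 (adjusted p = 0.369 and 0.551).

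**Figure D1:**
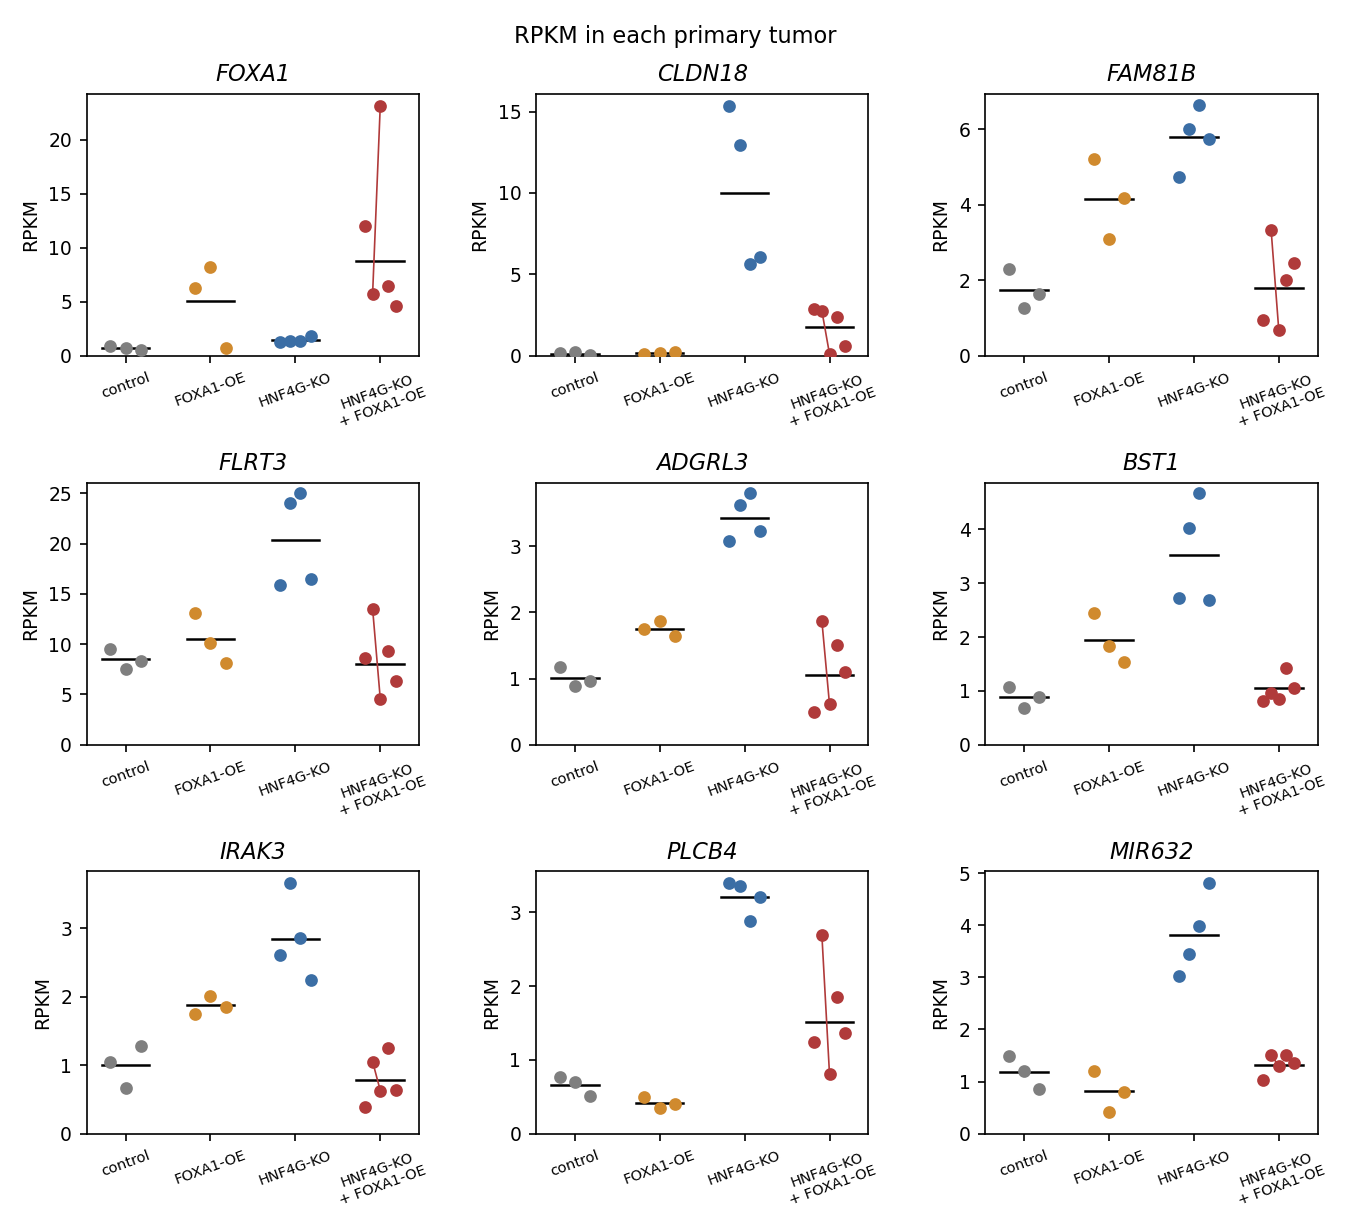
RPKM (y axis, linear, from 0) of FOXA1 and of the 8 called genes (adjusted p under 0.05), in each primary tumor of the 4 groups (x axis). Points are tumors, a thin line joins the 2 tumors of the same mouse, and bars are means over mice. In the panels of the 8 genes, all HNF4G-KO tumors lie above all HNF4G-KO + FOXA1-OE tumors, and for FOXA1 the order is the opposite.

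Of 14269 genes tested (mean RPKM of 1 or more), 8 passed an adjusted p-value of 0.05 (0.0561%), and all 8 were lower with FOXA1-OE. No gene passed as higher (0%). With limma and no adjustment, 2894 genes had a p-value under 0.05 (20.3%). They comprised 992 genes with higher values (6.95%) and 1902 with lower values (13.3%). Counted by single tumors, 157 genes were higher in each HNF4G-KO + FOXA1-OE tumor than in any HNF4G-KO tumor (1.1%), and 1195 were lower in each (8.37%). The split depends on scaling. With all samples shifted to the same median, the unadjusted counts were 1540 higher and 1352 lower, and no gene passed the adjusted threshold. On the scale as deposited, 41.9% of genes had a fold change above 0, against 51.9% after the shift.

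**Figure D2:**
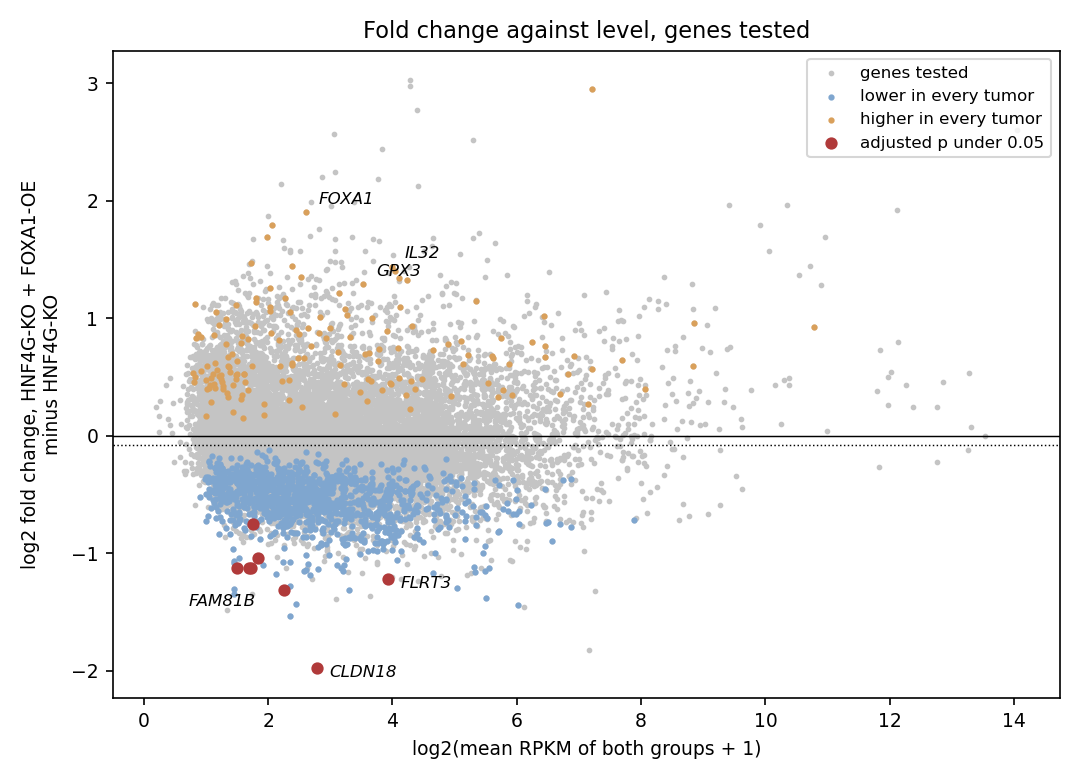
Log2 fold change (y axis, HNF4G-KO + FOXA1-OE minus HNF4G-KO on log2(RPKM + 1)) of each of the 14269 genes tested, against log2 of the mean RPKM of both groups plus 1 (x axis). Blue and orange points are genes whose groups do not overlap, red points the 8 called genes (adjusted p under 0.05), and the dotted line is the median of all genes at -0.08. The red points all lie below the dotted line, and FOXA1, IL32 and GPX3 lie above it without passing that threshold.

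Coordinates in GENCODE (GRCh38), matched by gene ID, were chr3:137998735-138033655 for CLDN18, chr5:95391366-95450454 for FAM81B, chr20:14322985-14337614 for FLRT3, chr4:61200326-62078335 for ADGRL3, chr4:15703065-15738313 for BST1, chr12:66189195-66254622 for IRAK3 and chr20:9067825-9504593 for PLCB4, each a protein-coding gene. The largest fall among the 8 was in CLDN18, a claudin of the tight junctions of stomach and lung that classical PDAC also expresses. It was at 15.3, 12.9, 5.61 and 6.04 RPKM in HNF4G-KO tumors and at 2.89, 2.76, 0.108, 2.41 and 0.624 RPKM in HNF4G-KO + FOXA1-OE tumors. The groups did not overlap, although each held a wide range, with HNF4G-KO tumors 1 and 2 above tumors 3 and 4. CLDN18 fell by 1.98 on the log2 scale (standard error 0.31, limma adjusted p = 0.0422). Control tumors and tumors with FOXA1-OE but without HNF4G-KO had at most 0.235 RPKM. HNF4G-KO + FOXA1-OE tumors still held more CLDN18 than either in 4 of 5 cases, the exception being tumor 3 at 0.108 RPKM. Of 20 claudin and tight junction genes, 18 were tested and CLDN18 alone was called. The next by p-value, CLDN12 and the polarity gene PARD3, differed by -0.72 and -0.45 (adjusted p = 0.203 and 0.206).

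The promoters of the 3 genes with the largest falls among the 8 called are shown because the overexpressed factor recognizes a forkhead word. The letters are the 250 bases before a RefSeq start in GRCh38.p14, 5′ to 3′ on the strand of the gene, with capitals for forkhead words (TGTTTAC or TATTTAC), the HNF4 word CAAAGTC and the GATA word AGATAA on both strands. CLDN18 has 2 starts in this table, and the words do not overlap each other.
CLDN18 start 1, chr3:137998566-137998815, plus strand: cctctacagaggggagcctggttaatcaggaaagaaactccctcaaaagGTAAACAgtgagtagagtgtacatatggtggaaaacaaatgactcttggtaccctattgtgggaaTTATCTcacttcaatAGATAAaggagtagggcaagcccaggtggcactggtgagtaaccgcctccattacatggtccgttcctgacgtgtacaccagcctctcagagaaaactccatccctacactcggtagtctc
CLDN18 start 2, chr3:138009915-138010164, plus strand: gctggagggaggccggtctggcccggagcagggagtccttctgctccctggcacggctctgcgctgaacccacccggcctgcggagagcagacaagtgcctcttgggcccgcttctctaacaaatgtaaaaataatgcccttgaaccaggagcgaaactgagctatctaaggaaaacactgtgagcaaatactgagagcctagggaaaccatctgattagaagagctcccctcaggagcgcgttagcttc
FAM81B, chr5:95391116-95391365, plus strand: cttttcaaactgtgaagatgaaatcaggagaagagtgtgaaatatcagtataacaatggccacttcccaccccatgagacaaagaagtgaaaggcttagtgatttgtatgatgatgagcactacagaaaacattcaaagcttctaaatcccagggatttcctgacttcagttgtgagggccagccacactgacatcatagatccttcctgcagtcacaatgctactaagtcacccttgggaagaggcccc
FLRT3, chr20:14337613-14337862, minus strand: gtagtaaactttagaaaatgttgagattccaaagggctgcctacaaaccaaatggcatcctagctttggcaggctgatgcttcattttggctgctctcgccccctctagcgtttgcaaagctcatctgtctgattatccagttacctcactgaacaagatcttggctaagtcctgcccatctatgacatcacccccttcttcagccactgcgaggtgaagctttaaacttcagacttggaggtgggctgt

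The first CLDN18 window held a forkhead word (GTAAACA, the reverse complement of TGTTTAC, at chr3:137998615-137998621, at position -201 from the start) and GATA words at positions -136 and -121. The windows of FAM81B and FLRT3 and the second of CLDN18 held none. RefSeq windows were matched for 5 of the 8 genes, 7 windows in all counting ADGRL3 and IRAK3, and CLDN18 was the 1 gene with any word. Over all 35116 promoter windows of 250 bases before and 50 after a start, 5.97% held a forkhead word, 3.37% the HNF4 word and 10.3% the GATA word. These matches describe letters near a start only, and binding was not examined here. The paper reports that sites shared by FOXA1, HNF4G and HNF4A in patient tumors were enriched near promoters.

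A ligand and its receptor were both among the 8 genes. FLRT3 is a membrane protein with leucine-rich repeats that binds latrophilins, and ADGRL3, also called latrophilin 3, is an adhesion G protein-coupled receptor. FLRT3 was at 15.9, 24.01, 25.1 and 16.5 RPKM in HNF4G-KO tumors and at 8.62, 13.5, 4.57, 9.36 and 6.31 RPKM in HNF4G-KO + FOXA1-OE tumors. Every tumor with FOXA1-OE was below every tumor without, and FLRT3 fell by 1.22 (standard error 0.19, limma adjusted p = 0.0422). ADGRL3 was at 3.08, 3.63, 3.80 and 3.23 RPKM against 0.495, 1.87, 0.610, 1.501 and 1.10 RPKM. Its 2 groups were well apart, and it fell by 1.13 (standard error 0.15, limma adjusted p = 0.0422). Of the 14 genes of the latrophilin, FLRT, teneurin and UNC5 families, 10 were below the RPKM filter. The remaining members, the latrophilin ADGRL1 and the netrin receptor UNC5B, which FLRT proteins can also bind, differed by 0.18 and -0.46 (adjusted p = 0.583 and 0.2803).

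IRAK3, an inactive kinase that damps signals from Toll-like receptors, was at 2.604, 3.67, 2.85 and 2.25 RPKM in HNF4G-KO tumors. With FOXA1-OE it was at 0.389, 1.05, 0.631, 1.25 and 0.645 RPKM, each below all HNF4G-KO tumors. IRAK3 fell by 1.12 (standard error 0.17, limma adjusted p = 0.0422). Of 26 genes of Toll-like receptor and IRAK signaling, 17 were tested, and the next members, the kinase MAP3K7 and the receptor TLR6, differed by -0.49 and -0.27 (adjusted p = 0.227 and 0.264).

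BST1 (CD157) is a cell surface enzyme that makes cyclic ADP-ribose from NAD. It was at 2.72, 4.02, 4.67 and 2.68 RPKM against 0.814, 0.955, 0.852, 1.43 and 1.05 RPKM with FOXA1-OE, where the 5 tumors were close together. BST1 fell by 1.13 (standard error 0.17, limma adjusted p = 0.0422). Of 14 genes of NAD and cyclic ADP-ribose metabolism, 11 were tested. Next to BST1 stood QPRT and NAMPT, enzymes of NAD synthesis, at 0.65 and -0.80 (adjusted p = 0.225 and 0.243).

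PLCB4, a phospholipase C that Gq proteins activate, was at 3.40, 3.35, 2.88 and 3.20 RPKM in HNF4G-KO tumors and at 1.25, 2.69, 0.805, 1.85 and 1.37 RPKM with FOXA1-OE. The highest FOXA1-OE tumor, tumor 2, came close to the lowest HNF4G-KO tumor, and PLCB4 fell by 0.75 (standard error 0.12, limma adjusted p = 0.0422). It belongs to a list of 24 genes of phospholipase C and G protein signaling, of which 18 were tested and 7 were lower at an unadjusted p-value under 0.05 (13.3% of all genes were). In 5 of the 18, every FOXA1-OE tumor was lower (8.37% of all genes). Two-sided exact permutation tests gave p = 0.0286 for PRKCA, a protein kinase C, and for the Gq family subunit GNA14. Every gene without overlap between the groups has this p-value, so it adds nothing to the lack of overlap. PRKCA and GNA14 differed by -0.58 and -0.45, with limma adjusted p-values of 0.149 and 0.196. The median of the list was -0.24, against -0.08 over all genes tested.

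FAM81B, a little studied gene of ciliated cells, was at 4.75, 6.01, 6.65 and 5.75 RPKM in HNF4G-KO tumors and at 0.956, 3.33, 0.688, 2.01 and 2.47 RPKM with FOXA1-OE. The groups were apart, and within the shared mouse tumor 2 was well above tumor 3. FAM81B fell by 1.31 (standard error 0.19, limma adjusted p = 0.0422). The last of the 8, MIR632, is a miRNA gene of 94 bases on chromosome 17 (32350109 to 32350202), at 3.02, 3.44, 3.99 and 4.81 RPKM against 1.03, 1.51, 1.30, 1.505 and 1.37 RPKM. It fell by 1.04 (standard error 0.17, limma adjusted p = 0.0422). An mRNA library does not capture mature miRNAs, and reads over MIR632 cannot be told apart from those of an overlapping gene.

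All 8 of these genes had a two-sided exact permutation p-value of 0.0286 over mice, as every gene without overlap between the groups must. Their direction was the same in each alternative that was run. Their calls were less stable. When single mice were left out, between 0 and 3 genes passed, and none of the 8 passed without any 1 of the 4 HNF4G-KO mice, without tumor 1 or 5, or without the mouse of tumors 2 and 3. Without tumor 4, ADGRL3 and IRAK3 passed, with SLC12A2 as the other gene called. With tumors 4 and 5 both left out, 39 genes passed, 33 of them lower, and 5 of the 8 were among them. Their exons ranged from 94 bases (MIR632) to 21611 bases (PLCB4). With the trend on GC content and exon length removed, 3 of the 8 kept their calls (BST1, CLDN18 and FLRT3). PLCB4 then differed by -0.38. The part of exon length in the calls was not tested.

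The effect of FOXA1-OE with HNF4G targeted was then compared with its effect without, as HNF4G-KO + FOXA1-OE minus HNF4G-KO, less FOXA1-OE minus control. These differences share no tumor, but the first is the difference that gave the 8 calls. For those genes the selection favors a negative interaction, which is therefore no separate evidence. The interaction passed for 5 genes (0.035%), all more negative with HNF4G-KO, and 4 of them were among the 8 above. In these 4 genes, tumors 1 to 3 with FOXA1-OE but without HNF4G-KO had higher levels than control tumors. None of the differences passed (limma adjusted p = 0.840 for each), and tumor 3 of that arm had FOXA1 at control level. All 8 called genes were higher in HNF4G-KO than in control tumors, by 0.94 (IRAK3, limma adjusted p = 0.00853) to 3.17 (CLDN18, adjusted p = 0.000318). The same HNF4G-KO tumors entered the 8 calls, so the selection favors a positive difference here. The mean of HNF4G-KO + FOXA1-OE mice lay within the control range in each of the 4 genes and in FLRT3 and MIR632. For BST1 it was 1.05 RPKM against 0.678 to 1.08 RPKM. The means of CLDN18 and PLCB4 stayed above their control ranges. For FAM81B the log2 differences were 0.91 without and -1.31 with HNF4G-KO, an interaction of -2.22 (limma adjusted p = 0.0419). BST1 differed by 0.64 and -1.13 (interaction -1.77, adjusted p = 0.0419), IRAK3 by 0.53 and -1.12 (interaction -1.65, adjusted p = 0.0474) and ADGRL3 by 0.45 and -1.13 (interaction -1.58, adjusted p = 0.0419). FLRT3, CLDN18, PLCB4 and MIR632 had interactions of -1.48, -2.02, -0.52 and -0.75 that did not pass (adjusted p = 0.261, 0.361, 0.459 and 0.438). The fifth gene, RPL31P34, is a processed pseudogene and may take reads of related genes. Without the tumor labeled FOXA1-OE 3, 6 genes passed the interaction, and with single mice of the compared groups left out between 0 and 6 did.

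Toward higher levels no gene passed, and at an adjusted p-value under 0.1 stood SFN alone, named here after its values were seen, beside 17 lower genes. SFN (14-3-3 sigma), a cell cycle inhibitor of epithelia, was at 52.3, 33.5, 37.4 and 50.1 RPKM against 85.5, 48.4, 107, 103 and 131 RPKM, a log2 difference of 1.15 (limma adjusted p = 0.0834). Its groups overlapped, since tumor 2 was below 2 of the HNF4G-KO tumors. IL32, a proinflammatory cytokine, was at 10.8, 5.66, 5.69 and 7.15 RPKM in HNF4G-KO tumors and at 32.4, 11.1, 12.2, 18.0 and 28.1 RPKM with FOXA1-OE. All FOXA1-OE tumors were above, by 1.44 on the log2 scale (limma adjusted p = 0.113). The glutathione peroxidases GPX3 and GPX2, which remove peroxides, were also higher in each FOXA1-OE tumor, by 1.29 and 0.96 (adjusted p = 0.132 and 0.196). GPX3 was at 5.44, 3.96, 6.08 and 6.25 RPKM against 25.1, 8.63, 8.26, 11.8 and 17.5 RPKM. PVT1, a long noncoding RNA next to MYC, was at 3.29 ± 0.216 and 5.91 ± 1.35 RPKM (SD, n = 4 mice in each group), a difference of 0.67 (adjusted p = 0.196), while MYC itself differed by -0.25 (adjusted p = 0.769).

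Other genes toward higher levels were named by smallest unadjusted p-value among those without overlap and with a log2 difference of at least 1. Several of them were short or noncoding. Those named by the same rule were the pseudogenes UBA52P5 and FTLP5, the miRNA gene MIR3658, 4 genes without a symbol, ELFN1-AS1 and CSNK2B. In all of them but FTLP5, tumors 4 and 5 were the highest. UBA52P5 was at 37.3 and 38.0 RPKM there and at 9.77 to 16.9 RPKM in tumors 1 to 3, against 6.28 to 9.68 RPKM in HNF4G-KO tumors. Reads of pseudogenes can come from the parent gene, and these values are uncertain. Tumors 4 and 5 were also the libraries rich in mitochondrial tRNA. The fold change fell with exon length, from a median of 0.27 in the shortest 20% of genes to -0.23 in the longest 20%. Without tumors 4 and 5 these medians were 0.05 and -0.18. The part of RNA quality in the higher and lower genes was not tested.

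**Figure D3:**
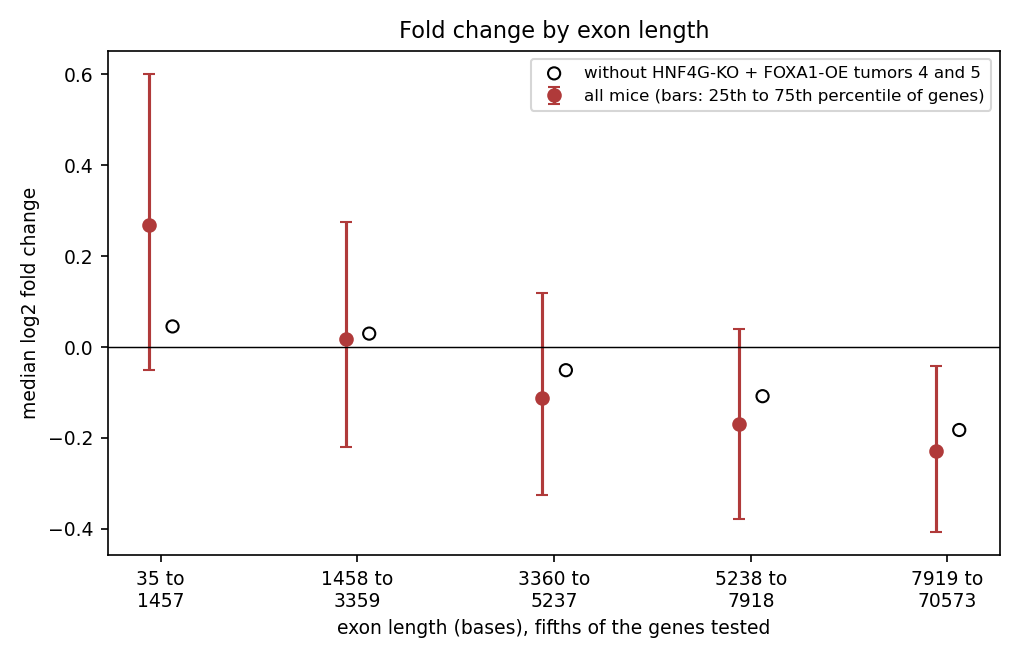
Median log2 fold change (y axis, HNF4G-KO + FOXA1-OE minus HNF4G-KO) of genes in 5 classes of exon length (x axis, bases, from GENCODE). Filled points are medians over all mice with bars from the 25th to the 75th percentile of genes, and open points are medians without HNF4G-KO + FOXA1-OE tumors 4 and 5. The median passes from 0.27 in the shortest genes to -0.23 in the longest, and from 0.05 to -0.18 without these tumors.

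Among the lower genes just outside the threshold, ST6GALNAC1, the enzyme that makes the sialyl-Tn antigen on mucins, was at 67.6, 51.8, 51.6 and 46.2 RPKM in HNF4G-KO tumors and at 32.8, 44.1, 8.36, 23.8 and 20.2 RPKM with FOXA1-OE. The groups did not overlap, although FOXA1-OE tumor 2 came close to the lowest HNF4G-KO tumor, and the difference was -1.16 (limma adjusted p = 0.0668). CYP24A1, which inactivates vitamin D, was at 46.2, 84.9, 63.4 and 60.5 RPKM against 38.5, 23.8, 23.7, 21.5 and 14.8 RPKM, a difference of -1.38 (adjusted p = 0.104). The ectoenzyme ENPP4 differed by -1.19 (adjusted p = 0.104) and the metalloprotease ADAM28 by -0.997 (adjusted p = 0.0925). All 4 were lower in each FOXA1-OE tumor.

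Gene lists were described by their counts and medians. Of 25 classical subtype genes 24 were tested, with a median of -0.22: 3 were lower and 1 was higher at an unadjusted p-value under 0.05 (13.3% and 6.95% of all genes). The 3 of smallest p were CLDN18, ST6GALNAC1 and, in the other direction, GPX2. Of 27 basal-like genes 22 were tested, with a median of 0.15: 3 were higher and 1 was lower. KRT7, a keratin of ductal epithelium, was at 354, 346, 379 and 358 RPKM against 771, 372, 895, 528 and 965 RPKM, a difference of 0.94 (limma adjusted p = 0.147), with tumor 2 alone inside the range of the HNF4G-KO tumors. LY6D and SCEL, genes of stratified epithelium, differed by 1.35 and -0.68 (adjusted p = 0.215 and 0.222). With either list, no more than 1 gene was called, and the median of the classical list came to -0.01 when tumor 2 stood for its mouse and to -0.50 when tumor 3 did.

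The transcription factors of endoderm and pancreas had 18 of 35 members tested, of which 5 were lower at an unadjusted p-value under 0.05 and none was higher (13.3% and 6.95% of all genes tested). EHF, an ETS factor of epithelia, was at 44.2, 55.8, 50.5 and 55.2 RPKM in HNF4G-KO tumors and at 17.8, 44.8, 28.0, 28.2 and 13.5 RPKM with FOXA1-OE. Tumor 2 lay inside the range of the HNF4G-KO tumors and the other FOXA1-OE tumors below it, with a difference of -1.17 (limma adjusted p = 0.196). The zinc finger factors KLF5 and MECOM differed by -0.60 and -0.53 (adjusted p = 0.196 for each). For MECOM tumor 2 was inside the HNF4G-KO range, and for KLF5 it was above it, at 126 RPKM against 111 to 121 RPKM. Genes that the study names at its example loci and as cofactors gave a median of -0.04 over 10 members. TRIB1 and PRMT1 were among them, at 0.17 and 0.04 (adjusted p = 0.657 and 0.877).

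In the cholesterol and fatty acid list, 20 of 21 genes were tested, 7 were lower at an unadjusted p-value under 0.05 and none was higher (13.3% and 6.95% of all genes). Every FOXA1-OE tumor was lower for 5 of the 20 (8.37% of all genes tested). SCD, which desaturates fatty acids, was at 108, 105, 117 and 110 RPKM in HNF4G-KO tumors and at 73.1, 94.3, 53.2, 64.0 and 55.1 RPKM with FOXA1-OE. The HNF4G-KO tumors were nearly equal and all above, with a difference of -0.74 (limma adjusted p = 0.104). INSIG1, which holds the sterol sensor in the endoplasmic reticulum, and IDI1, of the mevalonate pathway, differed by -0.67 and -0.72 (adjusted p = 0.196 and 0.201). The list's median was -0.23.

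Hypoxia and glycolysis genes had a median of -0.60 over 20 of 21 members, with 7 lower and none higher at an unadjusted p-value under 0.05 (13.3% and 6.95% of all genes). HK2, the first enzyme of glycolysis, was at 14.3, 29.5, 31.8 and 23.4 RPKM against 16.8, 12.3, 6.96, 10.3 and 7.72 RPKM. The groups overlapped, since HNF4G-KO tumor 1 was below FOXA1-OE tumor 1, and the difference was -1.09 (limma adjusted p = 0.196). The carbonic anhydrase CA12 and the collagen hydroxylase P4HA1 differed by -0.67 and -1.07 (adjusted p = 0.196 and 0.197). Over the 25 alternatives the list's median stayed between -0.82 and -0.40. Single tumors varied in both groups. As a median difference from the HNF4G-KO mean, the list was at 0.11 in HNF4G-KO + FOXA1-OE tumor 1 and at -1.61 to -0.54 in tumors 2 to 5. In HNF4G-KO tumor 1 it was at -0.52, and in HNF4G-KO tumors 2 to 4 at 0.09 to 0.24. Wnt pathway genes had a median of -0.31 over 20 of 28 members, with 6 lower and none higher, beside the same shares of all genes. Their smallest p-values were those of the ligand WNT11 (-0.66) and the receptors FZD3 and FZD6 (-0.37 and -0.81, limma adjusted p = 0.202 for each of the 3).

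Interferon response genes pointed the other way, with a median of 0.18 over 26 members, 4 higher and none lower at an unadjusted p-value under 0.05 (6.95% and 13.3% of all genes). ISG15, a ubiquitin-like protein, was at 340, 220, 214 and 192 RPKM against 836, 213, 253, 583 and 975 RPKM. Tumors 1, 4 and 5 were above all HNF4G-KO tumors and tumors 2 and 3, of the shared mouse, within their range (difference 1.29, limma adjusted p = 0.196). IFI6 and the immunoproteasome subunit PSMB9 differed by 1.28 and 0.45 (adjusted p = 0.197 and 0.225). Without tumor 1 the median of the list was -0.03. Of 25 chemokines and cytokines 15 were tested, and IL32 and IL18 were the 2 higher at an unadjusted p-value under 0.05 (6.95% of all genes), IL18 by 0.65 (adjusted p = 0.198). The proliferation list had a median of -0.26 over 25 genes, with 1 gene in each direction at that threshold, AURKB at 0.39 and CDK1 at -0.60 (adjusted p = 0.235 and 0.246).

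Lists of proteases, axon guidance, adhesion, mucin, mesenchymal and EGF family genes had medians between -0.20 and 0.12. Extracellular proteases and inhibitors had 4 higher and 5 lower genes of 27 at an unadjusted p-value under 0.05 (6.95% and 13.3% of all genes). Among them were TIMP1 at 1.02 (limma adjusted p = 0.206) and ADAM10 at -0.56 (adjusted p = 0.205). Axon guidance genes had 6 lower (13.3% of all genes) and none higher of 28, led by the semaphorin receptor NRP2 at -0.54 and SEMA3C at -0.59 (adjusted p = 0.196 and 0.202). Epithelial adhesion genes had 1 higher and 4 lower of 22 (6.95% and 13.3% of all genes), and CDS1, KRT18 and EPCAM differed by -0.55, 0.75 and -0.58 (adjusted p = 0.197, 0.215 and 0.240). Of 14 mucin and trefoil genes, 14 mesenchymal genes and 9 EGF family genes tested, 0, 0 and 1 had an unadjusted p-value under 0.05 (20.3% of all genes). The 1 gene was TGFA at -0.63 (adjusted p = 0.234).

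Markers of mouse cells were read from human gene names. Host stroma markers summed to 72.2 to 91.5 RPKM in HNF4G-KO tumors and to 67.7 to 142 RPKM with FOXA1-OE, and none of the 19 was at 0 in every tumor. Host pancreas markers summed to 2.604 to 44.5 RPKM and to 1.31 to 158 RPKM. PRSS2, a trypsinogen, was at 49.2 RPKM in tumor 4 and at most 4.91 RPKM in the other FOXA1-OE tumors. Sums for host adipose were 22.7 to 39.0 and 24.9 to 72.9 RPKM, for host endothelium 8.93 to 9.68 and 7.72 to 16.4 RPKM, and for blood and immune cells 501 to 752 and 153 to 678 RPKM, the last mostly LYZ. DES, a muscle intermediate filament, was the stroma marker of smallest p, at 0.359 to 0.924 RPKM without FOXA1-OE and at 0.715 to 6.68 RPKM with it (1.38, limma adjusted p = 0.196). With the mean of the stroma list as a covariate, 384 genes passed, 338 of them lower, and all 8 genes kept their calls. With the blood and immune list, 11 genes passed and again included the 8.

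**Figure D4:**
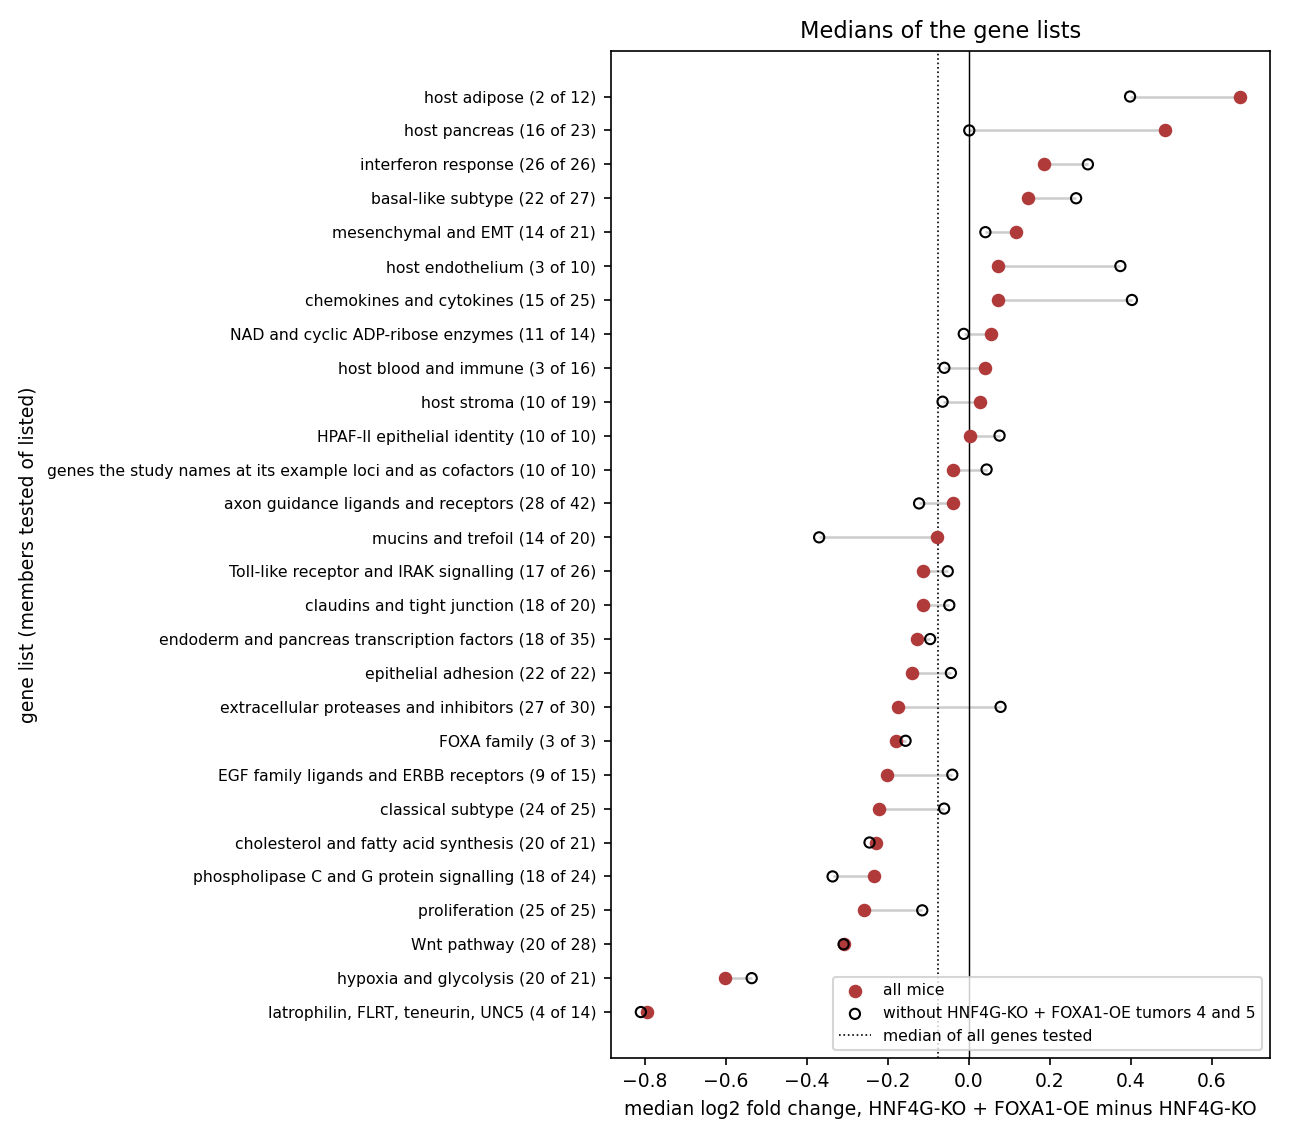
Median log2 fold change (x axis, HNF4G-KO + FOXA1-OE minus HNF4G-KO) of each gene list (y axis, members tested of those listed). Filled points are over all mice, open points without HNF4G-KO + FOXA1-OE tumors 4 and 5, and the dotted line is the median of all genes tested, -0.08. Hypoxia and glycolysis at -0.60 and Wnt at -0.31 lie to the left in both, while the host pancreas list passes from 0.48 to near 0 without tumors 4 and 5.

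FAM81B and LRRIQ1 pointed to genes of motile cilia, the beating hairs of airway, oviduct and ependymal cells. Their axoneme is moved by dynein arms, and the forkhead factor FOXJ1 with RFX factors turns on their genes. A list of 46 such genes was drawn up after the values were seen, and its counts are a description with no test. Of these, 45 were measured and 31 passed the RPKM filter, 22 were lower and none was higher at an unadjusted p-value under 0.05 (13.3% and 6.95% of all genes tested), and 19 were lower in every FOXA1-OE tumor (8.37% of all genes). FAM81B alone was called. The median was -0.68, and the list summed to 186 to 222 RPKM in HNF4G-KO tumors and to 80.4 to 155 RPKM with FOXA1-OE.

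FOXJ1 was the most abundant of the cilia genes named here, at 60.9, 50.7, 63.7 and 54.4 RPKM in HNF4G-KO tumors and at 24.6, 27.9, 26.5, 27.6 and 33.9 RPKM with FOXA1-OE. Each group was tight and the groups were far apart. The difference was -0.997 (standard error 0.33), with a limma adjusted p-value of 0.1999. The fit pools the spread of all 4 groups, and in the group with FOXA1-OE alone FOXJ1 was at 59.8, 65.2 and 15.3 RPKM, the last in the tumor with FOXA1 at control level. C20orf85, a gene of ciliated cells, was at 4.85, 5.21, 6.30 and 9.30 RPKM against 0.387, 1.80, 0.262, 1.90 and 4.11 RPKM (difference -1.54, limma adjusted p = 0.105). LRRIQ1, a gene with leucine-rich repeats, was at 1.75, 3.12, 3.34 and 2.62 RPKM against 0.534, 1.38, 0.586, 0.847 and 0.603 RPKM (difference -1.08, adjusted p = 0.0665). In all 3 genes every FOXA1-OE tumor was lower.

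Parts of the cilium differed in the same direction at low levels. RSPH4A, of the radial spoke, was at 1.95 ± 0.185 and 0.666 ± 0.275 RPKM (SD, n = 4 mice in each group). CFAP70 and CFAP43, axonemal proteins, were at 2.58 ± 0.563 and 1.89 ± 0.326 RPKM and, with FOXA1-OE, at 0.843 ± 0.338 and 0.785 ± 0.191 RPKM. These 3 differed by -0.84, -0.96 and -0.69 (limma adjusted p = 0.0668, 0.0741 and 0.101). DRC1, of the nexin-dynein complex, differed by -1.07 (adjusted p = 0.104). CCNO and CFAP298 stood apart from the list with values of 0.22 and 0.09 (adjusted p = 0.393 and 0.656). With limma-voom on recovered reads, 3 cilia genes were called (FAM81B, CFAP43 and CFAP70), and without the tumor labeled FOXA1-OE 3, 8 were, FOXJ1 and LRRIQ1 included. With HNF4G-KO + FOXA1-OE tumors 4 and 5 left out, 9 of the 31 were called, all lower. The list's median lay between -1.02 and -0.39 over the 25 alternatives.

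**Figure D5:**
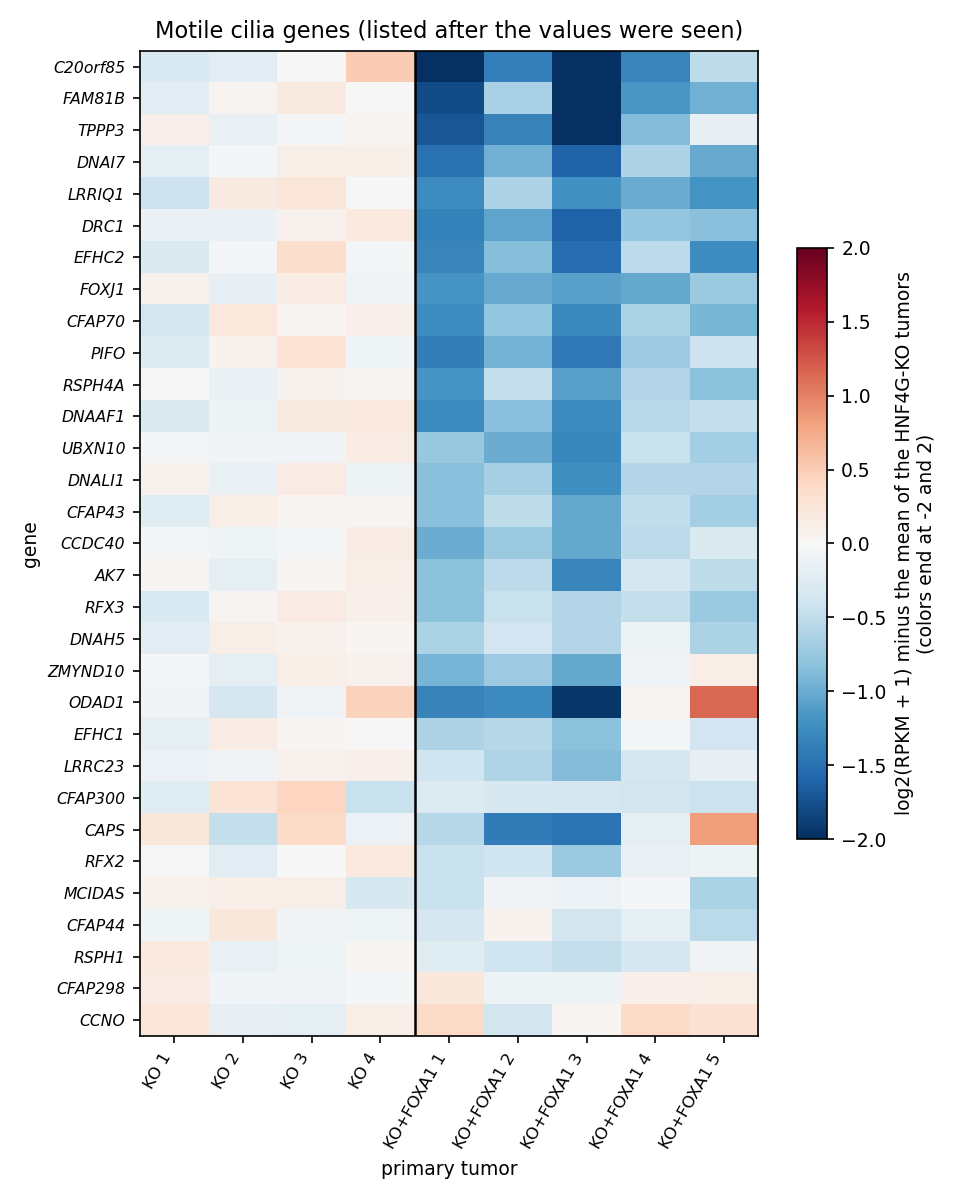
Log2(RPKM + 1) of the 31 motile cilia genes tested (y axis, ordered by fold change), as the difference from the mean of the HNF4G-KO tumors, in 4 HNF4G-KO and 5 HNF4G-KO + FOXA1-OE primary tumors (x axis, KO and KO+FOXA1). Blue is lower and red higher, and colors end at -2 and 2. In HNF4G-KO + FOXA1-OE tumors 1 to 3 nearly the whole list is blue, deepest in tumor 3, and tumors 4 and 5 of that group are paler, with ODAD1 and CAPS red in tumor 5.

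Metastases were not part of the comparison but hold the same genes. FOXA1 was at 0.362 and 0.602 RPKM in the 2 HNF4G-KO metastases, both of the peritoneum. In the HNF4G-KO + FOXA1-OE group it was at 0.535 RPKM in a spleen metastasis, 17.9 and 1.30 RPKM in metastases in fat and 1.56 RPKM in a peritoneal one. The spleen metastasis and the first of those in fat came from the same mouse. All metastases of both groups, except the second in fat, came from mice whose primary tumors were compared. They are therefore not independent of the calls. The FOXA1 mRNA of 3 of these 4 metastases was therefore below that of every primary tumor of its group. Of the 8 called genes, 1 was lower in each FOXA1-OE metastasis than in both HNF4G-KO metastases, BST1, at 0.390, 1.26, 2.68 and 0.533 RPKM against 4.43 and 3.45 RPKM. IRAK3 was at 0.523, 0.313, 3.38 and 0.451 RPKM against 2.09 and 3.19 RPKM, with the last metastasis in fat above both.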

How the data were processed

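RNA-seq libraries of HPAF-II tumors were stranded mRNA libraries with single-end reads. The deposited values are RPKM per gene, which the authors made by aligning reads with STAR 2.6.1a and counting with featureCounts 2.0.4. The submitters' processing notes name GRCh38 while the paper's methods name an earlier human build, and no step that removes mouse reads is given in the sources used here.

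Groups came from the treatment labels, and mice from the animal labels. Values of tumors from the same mouse were averaged as log2(RPKM + 1). Genes averaging 1 RPKM or more in the primary tumors were fitted in limma 3.58.1 (R 4.3.3; lmFit and eBayes with trend) over 15 primary tumors from 14 mice in 4 groups, with no covariate, and p-values were adjusted by Benjamini-Hochberg over all genes tested. Exact permutation tests were two-sided, over mice. The p-values measure the spread between mice, all carrying cells of the same line. Gene IDs were matched to GENCODE without version for 58250 of 58719 IDs, and 14202 of the 14269 genes tested had GC content and exon length.

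Whole reads were recovered for 14265 genes (within 0.01 of a whole read in every tumor) for limma-voom, and at least 99.78% of the values used to find depth came out whole. The scripts were tested on simulated data. The named genes were a fixed set of the study's factors, every called gene, 12 genes in each direction, and the 3 smallest p-values in each list. The 12 had the smallest unadjusted limma p-values among genes without overlap between groups and with a log2 difference of at least 1. A gene that this rule names is not reported here. SFN, SLC12A2, RPL31P34, ADGRL1 and the cilia list were named after their values were seen. The members and lists were chosen with earlier results of these data known. Mouse cell lines were not used here.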

Additional observations from a re-analysis of the deposited data

Results flagged for a closer look

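Single tumors lay far from the rest of their group in 8 of 202 combinations of a named gene and a group, by Dixon's criterion at 95%, which chance meets in about 1 in 20 groups. HNF4G-KO + FOXA1-OE tumor 5 was the low tumor in 5 of them. There SCEL was at 3.09 RPKM (6.76 to 8.79 RPKM in the other 4 tumors), TGFA at 7.94 RPKM (16.1 to 19.95 RPKM), BTC, an EGF family ligand, at 0.489 RPKM (1.65 to 2.15 RPKM), FZD6 at 4.47 RPKM (9.93 to 11.2 RPKM) and LYZ, lysozyme, at 142 RPKM (467 to 671 RPKM). In HNF4G-KO + FOXA1-OE tumor 2 the smooth muscle markers TAGLN and ACTA2 were at 2.33 RPKM (4.46 to 5.63 RPKM in the others) and 3.87 RPKM (8.28 to 10.2 RPKM). In HNF4G-KO tumor 2 the endothelial marker ESAM was at 5.88 RPKM (6.28 to 6.35 RPKM).

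The effect of FOXA1-OE differed between tumors with and without HNF4G-KO, by limma's interaction term, in FAM81B (-2.22), BST1 (-1.77), IRAK3 (-1.65), RPL31P34 (-1.64) and ADGRL3 (-1.58).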

How the results depend on the processing

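The 8 genes called and the 5 interaction calls moved with most settings. The first number is the count of called genes, the second that of interactions. They were 0 and 0 with a pseudocount of 0.1, a mean RPKM of 5 or more, samples shifted to the same median, tumor 2 alone for its mouse, or medians over 20 Mb windows removed. They were 16 and 2 with no filter, 4 and 0 with tumors as separate samples, 384 and 9 with the stroma covariate, 11 and 0 with the blood covariate, and 19 and 0 with GC content and exon length removed. Of the 8 genes, 3 kept their calls with no filter, 4 with separate tumors and 3 with GC content and exon length removed. All 8 did with either covariate. Fitting only the groups compared gave 0 genes, and tumor 3 alone for its mouse gave 14. Settings chosen after seeing the data gave 39 and 36 without HNF4G-KO + FOXA1-OE tumors 4 and 5, and 28 genes without FOXA1-OE tumor 3. Leaving out single mice gave 0 to 3 genes and 0 to 6 interactions. Limma-voom called 10 genes and requiring a size of 1 (log2) left 7. The cause of these moves was not tested.

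With the tumor number as a replicate block, 1 gene (C20orf85) and 1 interaction were called. The numbers were no evidence of pairing, since correlations of deviations were 0.03, 0.31 and 0.03 for numbers 1, 2 and 4.

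Signs reversed for 10 genes that were not called. HNF4A came to 0.0711 after shifting medians, 0.016 with tumor 2 alone, 0.0298 with the blood covariate, 0.0455 after GC and length, 0.0483 after windows and 0.0288 without tumors 4 and 5. MYC came to 0.0374 with the blood covariate and 0.39 without tumors 4 and 5. PRMT1 came to -0.0507 with tumor 2 alone and -0.089 after windows. ENG came to -0.138 with the block, -0.0453 after GC and length, -0.002 after windows and -0.207 without tumors 4 and 5. CD14 came to -0.0321 with separate tumors, -0.168 after GC and length and -0.248 without tumors 4 and 5. CSF1R came to -0.0525 with tumor 2 alone and -0.102 with the stroma covariate, ESAM to -0.0945 with tumor 2 alone, FZD3 to 0.0707 after GC and length, and GATA6 and TLR6 to 0.148 and 0.0382 after windows. Without single mice, HNF4A ranged from -0.13 to 0.0549, CSF1R from -0.0544 to 0.201 (-0.0409 without tumors 2 and 3), PRMT1 from -0.0084 to 0.103, ESAM from -0.106 to 0.164 (-0.0775 without tumors 2 and 3), ENG from -0.0395 to 0.174 (0.158 without HNF4G-KO + FOXA1-OE tumor 1), CD14 from -0.0334 to 0.336 (0.161 without HNF4G-KO tumor 1) and MYC from -0.515 to 0.0852.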

Other observations

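Along the chromosomes, in windows of 20 Mb with at least 20 genes tested, the lowest median log2 differences between HNF4G-KO + FOXA1-OE and HNF4G-KO tumors were -0.50 on chromosome 4 (180000001 to 200000000, 23 genes) and -0.44 on chromosome 2 (140000001 to 160000000, 35 genes). In these windows 8 and 13 genes were lower in every FOXA1-OE tumor and none was higher in every one, beside 8.37% and 1.1% of all genes tested.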
